A study of Homo sapiens with 12 samples.

Results

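The genes described here are 41 genes of the lysosome and its proton pump, chosen by name from what their products do. They comprise 16 genes of the vacuolar ATPase (V-ATPase), 7 genes for proteases and the protective protein, 6 for glycosidases, 5 for lipid handling, 4 for membrane proteins and a channel, and the 3 transcription factor genes TFEB, TFE3 and MITF. All 41 were found among the 60671 genes of the count table, and 40 of them were among the 18626 genes that passed the filter on low counts. The exception was LIPA, the lysosomal acid lipase gene, for which no library held more than 8 counts and 3 libraries held 0.

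RNA sequencing of total RNA was compared across 3 human leukemia lines with 4 replicates each. K562 is a chronic myeloid leukemia line of erythroid character and was the parent of both other lines. K/VP.5 is a clone of K562 that was selected for resistance to etoposide, a drug that traps topoisomerase II on DNA. K562/SSedit-2 is a clone of K562 in which Cas9 and a repair template had been used to silence a splice site of TOP2A, the gene of topoisomerase IIα, on some but not all of its alleles. All 3 lines were grown in the same medium and collected in mid-log phase. Each changed line was 1 clone, so the selection or the edit and the history of the clone cannot be told apart, and nothing in the labels says that the replicates came from separate cultures, so p-values measure the spread between these samples.

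The lysosome is the acidic compartment in which cells break down protein, lipid and carbohydrate. Its acid comes from the V-ATPase, a rotary pump in which a cytosolic V1 sector burns ATP and a membrane V0 sector carries protons, while accessory and assembly proteins help to build the V0 sector. TFEB, TFE3 and MITF are related transcription factors that bind a short palindromic element near the start of many lysosome genes, and mTORC1, which is recruited to the lysosome by the Rag GTPases, holds them in the cytosol when nutrients are plentiful.

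Total counts ranged from 28981722 to 43648830 per library, so that 3 counts correspond to between 0.0691 and 0.102 CPM, the unit of all levels below unless another is named, which is a gene's count scaled by the effective size of its library. TOP2A, the edited gene, averaged 402 ± 59.1 CPM (SD, n = 4) in K562, 275 ± 7.50 CPM in K/VP.5 and 192 ± 16.01 CPM in K562/SSedit-2. All 12 marker genes of K562 passed the filter, with a summed level of 3966 to 5093 CPM in K562, 3378 to 3626 CPM in K/VP.5 and 5289 to 5844 CPM in K562/SSedit-2. Of 19 marker genes of other cell types 9 passed, with summed levels of 207.9 to 291.8, 194.7 to 202.6 and 248.02 to 290.8 CPM in the same order. The other 10, among them CD14, CD163, MARCO and MPEG1 of macrophages, were at no more than 0.425 CPM in any library. In K/VP.5 3 of the 9 were higher than in K562 (ACP5, COL1A1 and COL1A2) and 4 were lower (ITGAX, CD3D, EPCAM and PECAM1), with ACP5, known from osteoclasts and macrophages, at 0.700 to 0.802 CPM in K562 and 4.07 to 5.197 CPM in K/VP.5. Their part in the results on lysosome genes was not tested. K562 replicate 1 stood apart from the other K562 replicates, with a chi-square statistic per degree of freedom of 61.3 to 65.1 against each of them and 6.60 to 20.3 among them. It was the highest of the 4 replicates for 30 of the 40 tested members, against 41.3% of all tested genes. Replicate 1 was also the highest for 25 of 40 members in K/VP.5, against 27.8% of all tested genes, and for 22 of 40 in K562/SSedit-2, against 28.0%. Calls gained or lost without it are given with the members concerned.

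K/VP.5 was compared with K562 to ask how an etoposide-selected clone differs from its parent. Of the 40 tested members 11 were higher in K/VP.5 and 14 were lower at an adjusted p under 0.1 (edgeR quasi-likelihood test, adjusted over all tested genes). Over all tested genes 26.2% were higher and 26.1% were lower, and among protein-coding genes of at least 10 CPM the shares were 24.3% and 35.4%, so the members' shares of 27.5% and 35.0% lay near those of other genes. Replicates of these lines did not overlap for 22 of the 40, against 43.0% of all tested genes. The median log2 fold change of the members was 0.03, against 0.01 over all tested genes. With upper-quartile scaling 18 members were higher and 13 were lower. That scaling moved the median of all tested genes to 0.07 and that of the members to 0.10. Without K562 replicate 1 the counts of members higher and lower were 17 and 15. The calls went in both directions, as the plot of levels in each replicate shows.

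**Figure D1:**
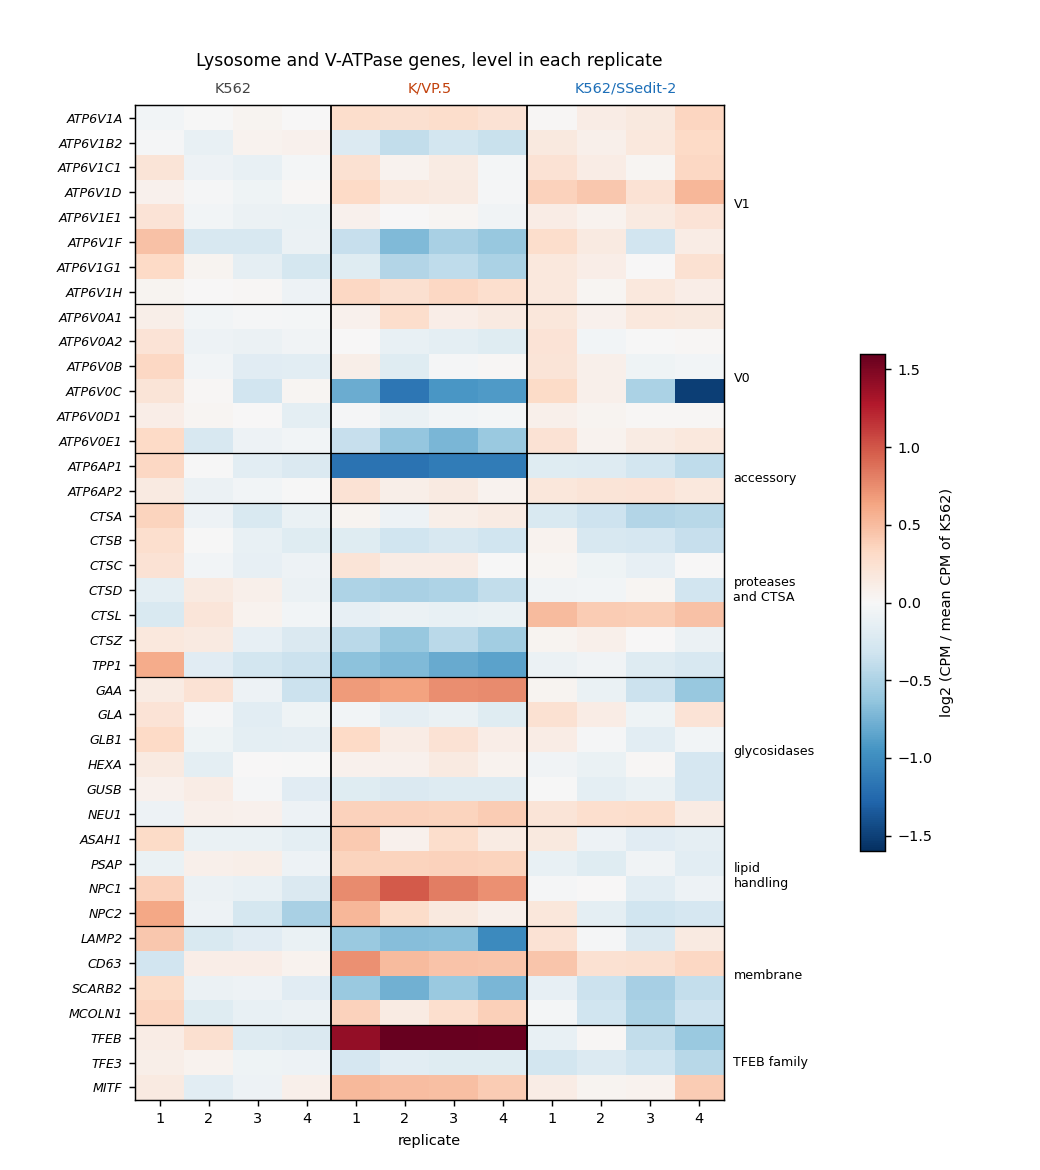
Level of each of the 40 tested members in each of the 12 libraries, as the log2 ratio of its CPM to the mean CPM of K562 (colour, from blue for lower to red for higher), with genes in rows grouped by role and replicates in columns grouped by line. TFEB is the darkest red row in all 4 K/VP.5 replicates and ATP6AP1 is dark blue in all 4, while ATP6V0C in K562/SSedit-2 spans from above the K562 mean to far below it.

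Members past 2-fold numbered 2, TFEB upward and ATP6AP1 downward, where 15.6% of all tested genes and 6.54% of protein-coding genes of at least 10 CPM were past 2-fold. TFEB, the factor best known for driving lysosome genes, was at 3.90, 4.33, 3.12 and 3.09 CPM in the 4 replicates of K562 and at 9.57, 11.997, 11.1 and 10.8 CPM in those of K/VP.5. Every K/VP.5 replicate was above every K562 replicate, and its lowest was more than 2 times the highest of K562. The log2 fold change was 1.59 ± 0.147 (SE, adjusted p = 1.82e-07, edgeR). In these bulk libraries a change in every cell and a change in some of the cells cannot be told apart, nor can less RNA per cell and fewer cells that express a gene. In K562/SSedit-2 TFEB was at 3.32, 3.64, 2.75 and 2.39 CPM, which overlapped K562, and the log2 fold change of -0.25 had a 95% interval of -0.56 to 0.05.

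TFE3, a close relative of TFEB, was the most abundant of the family, at 68.5, 67.2, 61.3 and 60.9 CPM in K562. It was at 53.3, 57.1, 56.4 and 56.5 CPM in K/VP.5 and at 52.7, 55.2, 51.8 and 47.3 CPM in K562/SSedit-2, below every K562 replicate in both clones. Its log2 fold changes were -0.21 ± 0.0672 (adjusted p = 0.0183, edgeR) and -0.32 ± 0.0673 (adjusted p = 0.00772). MITF, known for its role in melanocytes and in macrophage lineages, was at 13.1 to 16.3 CPM in K562 and at 19.5 to 21.2 CPM in K/VP.5, a log2 fold change of 0.48 ± 0.0964 without overlap. Per kilobase of exon, however, K562 held 0.537 CPM of TFEB against 1.99 of MITF and 15.3 of TFE3, so TFEB had the lowest level of the 3 in K562 per length.

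Genes of nutrient sensing at the lysosome were taken as a list of 38, of which 37 were tested, and 12 were higher and 14 lower in K/VP.5 (32.4% and 37.8%, against 26.2% and 26.1% of all tested genes and 24.3% and 35.4% of protein-coding genes of at least 10 CPM). The change of largest size among them was in RRAGD, which codes for a Rag GTPase that recruits mTORC1 substrates of the TFEB family to the lysosome. RRAGD was at 0.440, 0.414, 0.242 and 0.170 CPM in K562 and at 6.70, 7.24, 6.95 and 7.18 CPM in K/VP.5. All 4 replicates of K/VP.5 were far above those of K562, with a log2 fold change of 4.46 ± 0.264 (adjusted p = 7.2e-10, edgeR). In K562/SSedit-2 it was at 0.119 to 0.474 CPM, which overlapped K562, with a log2 fold change of 0.15 ± 0.354. MLST8, a subunit of mTORC1, was lower in K/VP.5, at 29.8 to 39.5 CPM against 62.3 to 88.5 CPM (-1.03 ± 0.115, and -0.94 without K562 replicate 1). It was lower in K562/SSedit-2 too, at 46.5 to 58.1 CPM (-0.42 ± 0.113, adjusted p = 0.0327, edgeR). NPRL3, a subunit of the GATOR1 complex that restrains mTORC1, was also lower, at 35.9 to 42.2 CPM against 63.5 to 101.9 CPM (-1.005 ± 0.139, and -0.86 without K562 replicate 1).

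**Figure D2:**
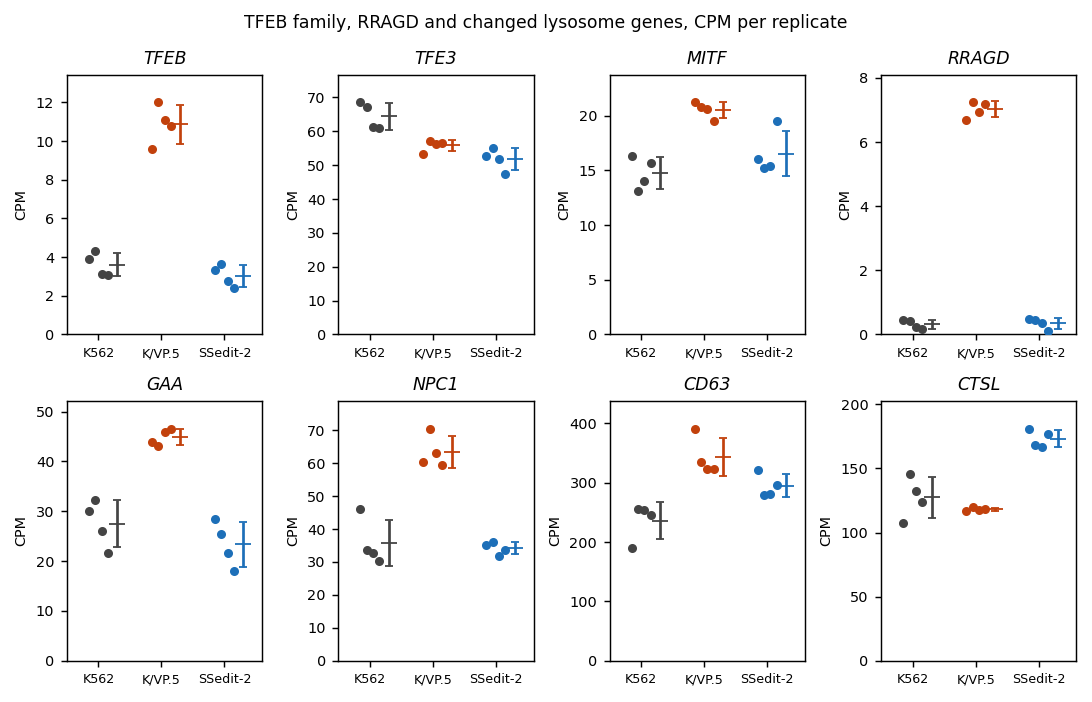
CPM of TFEB, TFE3, MITF, RRAGD, GAA, NPC1, CD63 and CTSL in each replicate (dots) with the mean and SD of the 4 replicates (bar) for each of the 3 lines, on linear axes that start at 0. TFEB, RRAGD, GAA and NPC1 are high in K/VP.5 and not in K562/SSedit-2, CD63 is above K562 in both clones, and CTSL is high in K562/SSedit-2.

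The palindrome CACGTG is the core of the element to which the TFEB family binds, and it was searched for in RefSeq promoter windows (GRCh38.p14), which run from 250 bases before to 50 bases after each annotated start. Windows were found for 31 of the 41 members, and 9 of these held the palindrome (29.03%, exact 95% interval 14.2 to 48.0%), against 2396 of 27305 genes (8.77%). The longer form TCACGTG, read on either strand, was in 8 of 31 members (25.8%) and in 4.49% of all genes. The stretches of those 8 are shown, with 25 bases on each side of the palindrome and the palindrome itself in capitals, because the counts by promoter that follow rest on them. They lie at chr17:80101480-80101580 (GAA, plus strand), chr19:7522558-7522640 (MCOLN1, plus), chr6:31862917-31862972 (NEU1, minus), chr11:1763944-1763999 (CTSD, minus), chr9:114587686-114587741 (ATP6V1G1, plus), chr20:45891268-45891340 (CTSA, plus), chr1:43974878-43974951 (ATP6V0B, plus) and chr16:67481186-67481241 (ATP6V0D1, minus).
GAA: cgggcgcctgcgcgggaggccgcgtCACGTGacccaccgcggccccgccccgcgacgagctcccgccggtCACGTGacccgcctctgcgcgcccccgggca
MCOLN1: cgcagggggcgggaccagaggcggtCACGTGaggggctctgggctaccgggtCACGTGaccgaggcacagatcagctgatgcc
NEU1: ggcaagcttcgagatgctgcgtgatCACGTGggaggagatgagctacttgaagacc
CTSD: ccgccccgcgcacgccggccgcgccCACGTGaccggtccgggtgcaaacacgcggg
ATP6V1G1: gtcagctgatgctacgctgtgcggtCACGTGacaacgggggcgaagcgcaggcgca
CTSA: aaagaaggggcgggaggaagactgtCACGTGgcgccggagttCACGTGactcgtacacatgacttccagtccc
ATP6V0B: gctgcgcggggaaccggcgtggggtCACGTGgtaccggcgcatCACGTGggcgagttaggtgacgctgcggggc
ATP6V0D1: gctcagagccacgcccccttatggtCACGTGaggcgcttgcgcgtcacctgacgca

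GAA, MCOLN1, CTSA and ATP6V0B each held the palindrome at 2 places. The ninth member with it was CD63, in 1 of its windows and without the longer form. In K/VP.5, where TFEB was higher, 4 of the 9 were higher (GAA, CD63, NEU1 and MCOLN1), 2 were lower (CTSD and ATP6V1G1) and 3 were not called, with a median log2 fold change of 0.05. Of all tested genes 26.2% were higher and 26.1% lower, and of protein-coding genes of at least 10 CPM 24.3% and 35.4%. Of the 21 tested members with a window and without the palindrome, 4 were higher, 8 were lower and 9 were not called, with a median of -0.11. In K562/SSedit-2, where TFEB was not called, 2 of the 9 were higher than in K562 (CD63 and NEU1) and 1 was lower (CTSA), with a median of 0.04, against 4.86% and 7.79% of all tested genes. Of the 21 without the palindrome 3 were higher, 2 were lower and 16 were not called there, with a median of -0.02. TFEB itself is among the 21. The part of TFEB in these calls was not tested. The promoter windows of TFEB itself did not hold these letters. The remaining 10 members were ATP6V1A, ATP6V1B2, ATP6V1C1, ATP6V1H, ATP6V0E1, CTSB, HEXA, ASAH1, PSAP and LAMP2.

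Of the 16 V-ATPase members 3 were higher in K/VP.5, 6 were lower and 7 were not called. The 37.5% that were lower lay near the 35.4% of protein-coding genes of at least 10 CPM, and 18.8% were higher, against 24.3% of those genes. The largest change was in ATP6AP1, which codes for an accessory protein of the V0 sector and whose gene lies at chrX:154428633-154436516 (GRCh38). ATP6AP1 was at 190.8, 150.6, 134.5 and 128.7 CPM in K562, at 66.9, 66.8, 69.4 and 69.7 CPM in K/VP.5, and at 131.8, 131.2, 123.8 and 114.1 CPM in K562/SSedit-2. The K/VP.5 replicates lay within 3 CPM of each other and far below every K562 replicate, while K562/SSedit-2 overlapped K562. The log2 fold change in K/VP.5 was -1.15 ± 0.101 (adjusted p = 9.33e-08, edgeR), and -1.04 without K562 replicate 1. In K562/SSedit-2 it was -0.27 ± 0.0992 (adjusted p = 0.109), and the fit with the replicate number as a block gave an adjusted p of 0.0686. It was -0.14 without K562 replicate 1 (adjusted p = 0.195).

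In the membrane sector, ATP6V0E1, a small V0 subunit, was at 64.2, 43.2, 48.7 and 49.9 CPM in K562 and at 39.9, 33.5, 31.1 and 34.1 CPM in K/VP.5. Every K/VP.5 replicate was below every K562 replicate, with a log2 fold change of -0.57 ± 0.107 (adjusted p = 0.000335, edgeR). ATP6V0C, the proteolipid that forms most of the proton-carrying ring, was at 4.70, 4.12, 3.31 and 4.18 CPM in K562 and at 2.35, 1.84, 2.14 and 2.17 CPM in K/VP.5. These groups did not overlap either, and the log2 fold change was -0.94 ± 0.270 (adjusted p = 0.00924). In K562/SSedit-2 ATP6V0C was at 5.05, 4.31, 2.88 and 1.43 CPM, so that its replicates spread wider than the difference between the other lines. Its counts are uncertain, since 60.9% of its exon bases are shared with another annotated gene on the same strand that was at 0.0136 CPM in K562. ATP6V0A1, an isoform of the subunit that anchors the pump in the membrane, was higher by a log2 fold change of 0.15 ± 0.0616, although its replicates overlapped, and it lost its call in 4 of the 8 fits that left out 1 replicate. ATP6V0A2, ATP6V0B and ATP6V0D1 were not called.

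In the cytosolic sector, ATP6V1A, the catalytic subunit, was at 164.4 to 174.3 CPM in K562 and at 198.5 to 206.5 CPM in K/VP.5 (log2 fold change 0.26 ± 0.0658). ATP6V1B2, with which it forms the ATP-binding ring, moved the other way, from 177.6 to 202.1 CPM down to 147.2 to 165.0 CPM (log2 fold change -0.31 ± 0.0675). Neither gene's replicates overlapped between these lines. ATP6V1H, which regulates the pump, was higher (0.30 ± 0.0608). The stalk subunits ATP6V1F (-0.54 ± 0.151) and ATP6V1G1 (-0.38 ± 0.111) were lower, of which ATP6V1F was at -0.36 without K562 replicate 1. ATP6V1C1, ATP6V1D and ATP6V1E1 were not called, nor was the accessory gene ATP6AP2, which was called higher without K562 replicate 1 (0.16, adjusted p = 0.0318). ATP6AP2 and ATP6V1D were also called higher with upper-quartile scaling, with a filter of 1 CPM and without K/VP.5 replicate 4. ATP6AP2 was called as well with limma voom and the replicate block, and ATP6V1C1 with upper-quartile scaling.

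**Figure D3:**
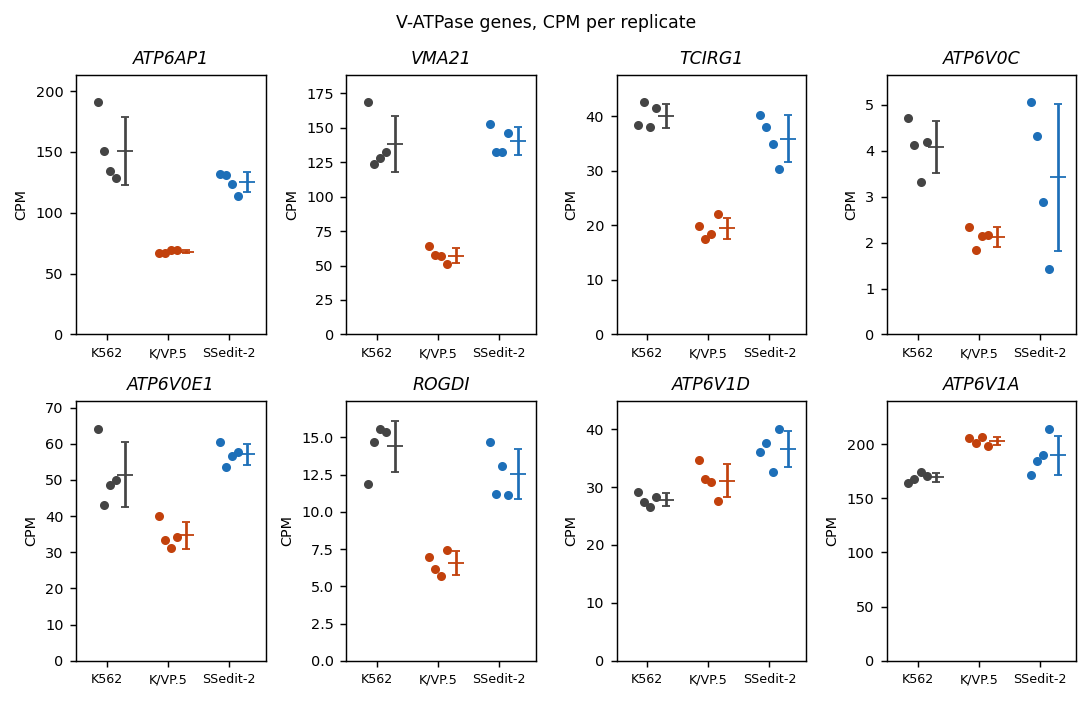
CPM of 8 V-ATPase genes in each replicate (dots) with the mean and SD of the 4 replicates (bar) for each of the 3 lines, on linear axes that start at 0. ATP6AP1, VMA21, TCIRG1, ROGDI, ATP6V0C and ATP6V0E1 are lower in all 4 K/VP.5 replicates than in any K562 replicate, ATP6V1A is higher, and ATP6V1D is higher in all 4 replicates of K562/SSedit-2 than in any of K562.

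The other V-ATPase subunits and assembly factors were taken as a list of 20, of which 16 were tested, and 5 were higher and 8 were lower in K/VP.5, against 26.2% and 26.1% of all tested genes and 24.3% and 35.4% of protein-coding genes of at least 10 CPM. The higher genes were ATP6V0E2, ATP6V1C2, ATP6V1G2, DMXL2 and WDR7. ATP6V0E2, the paralogue of ATP6V0E1, was at 38.1 to 44.1 CPM in K562 and 54.4 to 67.5 CPM in K/VP.5 (0.61 ± 0.105), without overlap and opposite in direction to ATP6V0E1. VMA21, a chaperone of V0 assembly, was at 168.3, 123.8, 128.1 and 132.0 CPM in K562 and at 64.2, 57.3, 56.6 and 50.8 CPM in K/VP.5 (log2 fold change -1.27 ± 0.0984, adjusted p = 2.08e-08, edgeR). TCIRG1, which codes for the V0 isoform known from osteoclasts, was at 38.0 to 42.6 CPM in K562 and 17.5 to 22.03 CPM in K/VP.5 (-1.05 ± 0.0946). ROGDI, which is thought to act in assembly of the pump, was at 11.9 to 15.6 CPM in K562 and 5.70 to 7.46 CPM in K/VP.5 (-1.13 ± 0.124). ATP6V1G2, an isoform of a stalk subunit, was past 2-fold upward with overlap (1.01 ± 0.378) at only 3 to 16 counts per library in these lines. VMA21, TCIRG1 and ROGDI did not overlap between the lines, and none of them was called in K562/SSedit-2.

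Of the 7 protease genes 4 were lower in K/VP.5 and 3 were not called, where 26.1% of all tested genes and 35.4% of protein-coding genes of at least 10 CPM were lower. TPP1, a tripeptidyl peptidase, was at 56.5, 32.8, 30.5 and 29.4 CPM in K562 and at 23.7, 22.8, 21.4 and 20.6 CPM in K/VP.5. The groups did not overlap, but K562 replicate 1 stood well above its fellows. The log2 fold change was -0.75 ± 0.161 (adjusted p = 0.00105, edgeR), and -0.50 without that replicate (adjusted p = 2.21e-05). The aspartic protease gene CTSD was at 47.1 to 51.4 CPM in K/VP.5 against 60.6 to 74.9 CPM in K562 (-0.48 ± 0.0838). The carboxypeptidase gene CTSZ averaged 41.4 against 58.8 CPM (-0.50 ± 0.0890). The cysteine protease gene CTSB was at 88.7 to 96.5 against 96.8 to 133.7 CPM (-0.27 ± 0.102). CTSC, CTSL and CTSA, which codes for the protective protein of the neuraminidase complex, were not called, and CTSC was the most abundant protease gene by CPM, at 422.7 to 542.2 in K562. Without K562 replicate 1 all 3 were called, CTSC at 0.17 (adjusted p = 0.0253), CTSA at 0.17 (adjusted p = 0.0798) and CTSL at -0.20 (adjusted p = 0.0118). CTSC was also called higher with upper-quartile scaling.

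Of 6 glycosidase genes 2 were higher in K/VP.5, 1 was lower and 3 were not called, where 26.2% of all tested genes were higher and 26.1% lower. GAA, the acid alpha-glucosidase that breaks down glycogen, was at 30.1, 32.2, 26.02 and 21.7 CPM in K562 and at 43.9, 43.1, 46.0 and 46.6 CPM in K/VP.5. All K/VP.5 replicates were above all K562 replicates, with a log2 fold change of 0.71 ± 0.130 (adjusted p = 0.000283, edgeR). In K562/SSedit-2 GAA was at 28.4, 25.5, 21.6 and 18.02 CPM, which overlapped K562 (-0.23 ± 0.131). NEU1, the lysosomal neuraminidase, was at 156.1 to 161.1 CPM in K/VP.5 against 115.1 to 129.1 CPM in K562 (0.38 ± 0.0608). GUSB, the beta-glucuronidase, was lower (-0.21 ± 0.0729), a call that was lost with upper-quartile scaling. GLA, GLB1 and HEXA were not called, though HEXA was called higher with that scaling. GLB1 (0.20) was called higher without K562 replicate 1, at 0.30 (adjusted p = 0.0022), and without K/VP.5 replicate 4. It was also called with limma voom, the 1 CPM filter, upper-quartile scaling and the replicate block.

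All 4 tested genes of lipid handling had positive log2 fold changes in K/VP.5, and 2 of them were called. Of the 18626 tested genes 9418 were positive. Called higher were 26.2% of all tested genes and 24.3% of protein-coding genes of at least 10 CPM. NPC1, the membrane protein that exports cholesterol from the lysosome, was at 45.99, 33.6, 32.8 and 30.4 CPM in K562 and at 60.5, 70.5, 63.2 and 59.4 CPM in K/VP.5. The lines did not overlap, with a log2 fold change of 0.83 ± 0.108 (adjusted p = 8.51e-06, edgeR), and K562/SSedit-2 was at 31.9 to 36.0 CPM. RMC1, whose exons share 6.38% of those of NPC1 on the opposite strand, was at 12.8 CPM in K562 and 24.2 CPM in K/VP.5. PSAP, the precursor of the saposins that present lipids to hydrolases, was at 961 to 1108 CPM in K562 and at 1325 to 1342 CPM in K/VP.5 (0.36 ± 0.0598). ASAH1 (0.23 ± 0.110) and NPC2 (0.28 ± 0.198) were not called. Both passed the threshold without K562 replicate 1, ASAH1 at 0.33 (adjusted p = 0.00576) and NPC2 at 0.54 (adjusted p = 0.00414), and over all fits NPC2 ranged from 0.12 to 0.54. Both were also called higher with the replicate block. ASAH1 was called as well with upper-quartile scaling, limma voom, no filter and the 1 CPM filter, and without K/VP.5 replicate 2 or 4.

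The 4 genes of membrane proteins were all called in K/VP.5, 2 higher and 2 lower. Of all tested genes 26.2% were higher and 26.1% lower, and of protein-coding genes of at least 10 CPM 24.3% and 35.4%. LAMP2, a major glycoprotein of the lysosomal membrane, was at 88.3, 55.2, 57.9 and 61.1 CPM in K562 and at 43.6, 40.8, 41.3 and 32.5 CPM in K/VP.5. SCARB2, the receptor that carries glucocerebrosidase to the lysosome, was at 54.8, 41.3, 41.7 and 38.8 CPM in K562 and at 29.2, 25.9, 29.2 and 26.7 CPM in K/VP.5. Neither gene overlapped between these lines, and the log2 fold changes were -0.73 ± 0.141 (adjusted p = 0.000434, edgeR) and -0.67 ± 0.107 (adjusted p = 7.6e-05). CD63, a tetraspanin of late endosomes and exosomes, rose instead, from 190.6, 254.9, 253.7 and 245.4 CPM to 390.9, 335.5, 323.6 and 322.5 CPM (0.54 ± 0.0924, adjusted p = 0.000145). MCOLN1, a calcium channel of the lysosome, was higher with overlapping replicates (0.29 ± 0.125), and its call was lost in 5 of the 8 fits that left out 1 replicate.

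Several members lay in chromosomal regions where neighbouring genes had moved as well. Within 1 Mb of ATP6AP1 there were 46 other tested genes of at least 1 CPM, of which 43 were lower in K/VP.5, with a median log2 fold change of -1.10. All 6 such neighbours of VMA21 were lower (median -1.40), as were 30 of 34 around TCIRG1 (median -0.91), 16 of 20 around LAMP2 (median -0.65) and 18 of 27 around CTSD (median -0.50). Among other genes described above, 19 of 27 were lower around ROGDI (median -0.47), 34 of 50 around NPRL3 (median -0.48), 53 of 88 around MLST8 (median -0.36), 52 of 84 around ATP6V0C (median -0.37) and 9 of 14 around TPP1 (median -0.36). Around NPC1, 5 of 6 neighbours were higher, with a median of 1.20. Medians were nearer to 0 around other genes. Around TFEB 8 of 18 neighbours were higher and 3 lower (median 0.09), around GAA 10 of 21 were higher and 4 lower (0.09), and around RRAGD 3 of 8 were higher and 3 lower (-0.09). Around SCARB2 1 of 9 was higher and 2 were lower (-0.07), around ATP6V0E1 5 of 12 were higher and 1 lower (0.07), and around CD63 6 of 43 were higher and 18 lower (-0.15). Around CTSZ 2 of 12 were higher and 8 lower (-0.26). Within 5 Mb, 70 of 162 neighbours of GAA were higher and 25 lower, and 2 of 28 neighbours of SCARB2 were higher and 12 lower. For these genes more neighbours were called in the direction of the gene than against it. More were called against the gene around ATP6V0E1 (23 of 59 higher, 7 lower), RRAGD (3 of 20 higher, 8 lower) and TFEB (23 of 86 higher, 27 lower). Around CD63 42 of 136 were higher and 41 lower. Over the 35 members with at least 5 neighbours, the log2 fold change of the gene and the median of its neighbours had a Pearson correlation of 0.57 and a Spearman correlation of 0.32. The points share their libraries, and without ATP6AP1 and NPC1, whose neighbours moved most, the Pearson correlation was 0.40. In K562/SSedit-2 versus K562 the Pearson correlation over 35 members was 0.42 and the Spearman correlation 0.38. Without ATP6V0D1 and GAA, whose neighbours moved most there, the Pearson correlation was 0.43. The part of regional change in these members' results was not tested.

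**Figure D4:**
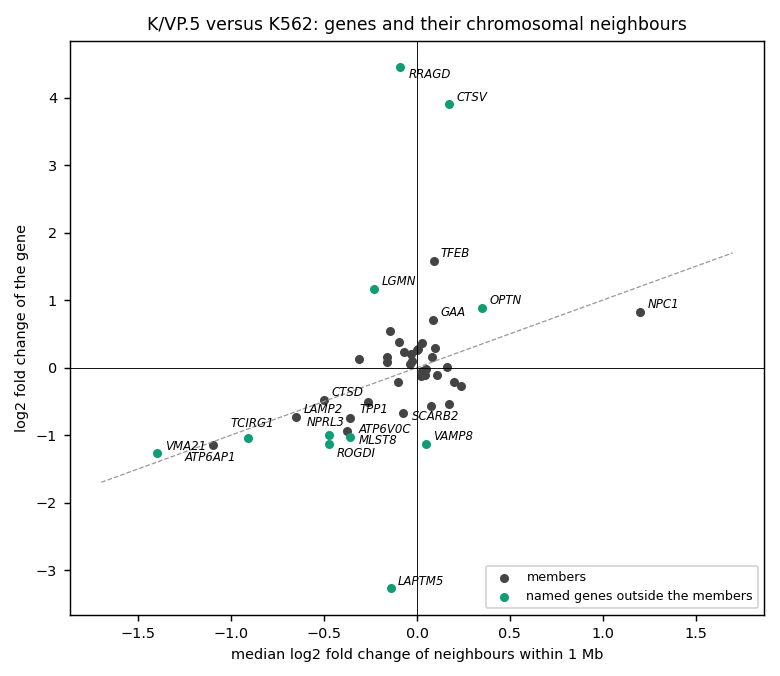
Log2 fold change of each gene in K/VP.5 versus K562 (vertical axis) against the median log2 fold change of the other tested genes of at least 1 CPM within 1 Mb (horizontal axis), for members (grey) and named genes outside them (green) with at least 5 neighbours. The dashed line marks equal values. ATP6AP1, VMA21, TCIRG1 and LAMP2 lie near it on the lower left and NPC1 on the right, while TFEB, RRAGD, GAA and SCARB2 lie above or below neighbours whose median is near 0.

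K562/SSedit-2 was compared with K562 to ask how a clone with an edited TOP2A differs from its parent. Of the 40 tested members 5 were higher and 3 were lower, where 4.86% and 7.79% of all tested genes were higher and lower, and among protein-coding genes of at least 10 CPM 6.39% and 10.9%. No member was past 2-fold by edgeR, at an unadjusted p under 0.05 or by DESeq2 or limma voom, where 2.06% of all tested genes were, and the members' log2 fold changes ran from -0.36 to 0.44 with a median of 0.02. Replicates did not overlap for 7 of the 40, against 13.2% of all tested genes. The replicate numbers paired these lines, and the fit with the number as a block called 6 higher and 6 lower, adding ATP6V1B2 to the first and ATP6AP1, CTSB and MCOLN1 to the second. Without K562 replicate 1, 12 were higher and 3 were lower, with a median of 0.13, and with upper-quartile scaling 8 were higher and 3 were lower. That scaling moved the median of all tested genes from -0.01 to 0.02 and that of the members from 0.02 to 0.06.

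**Figure D5:**
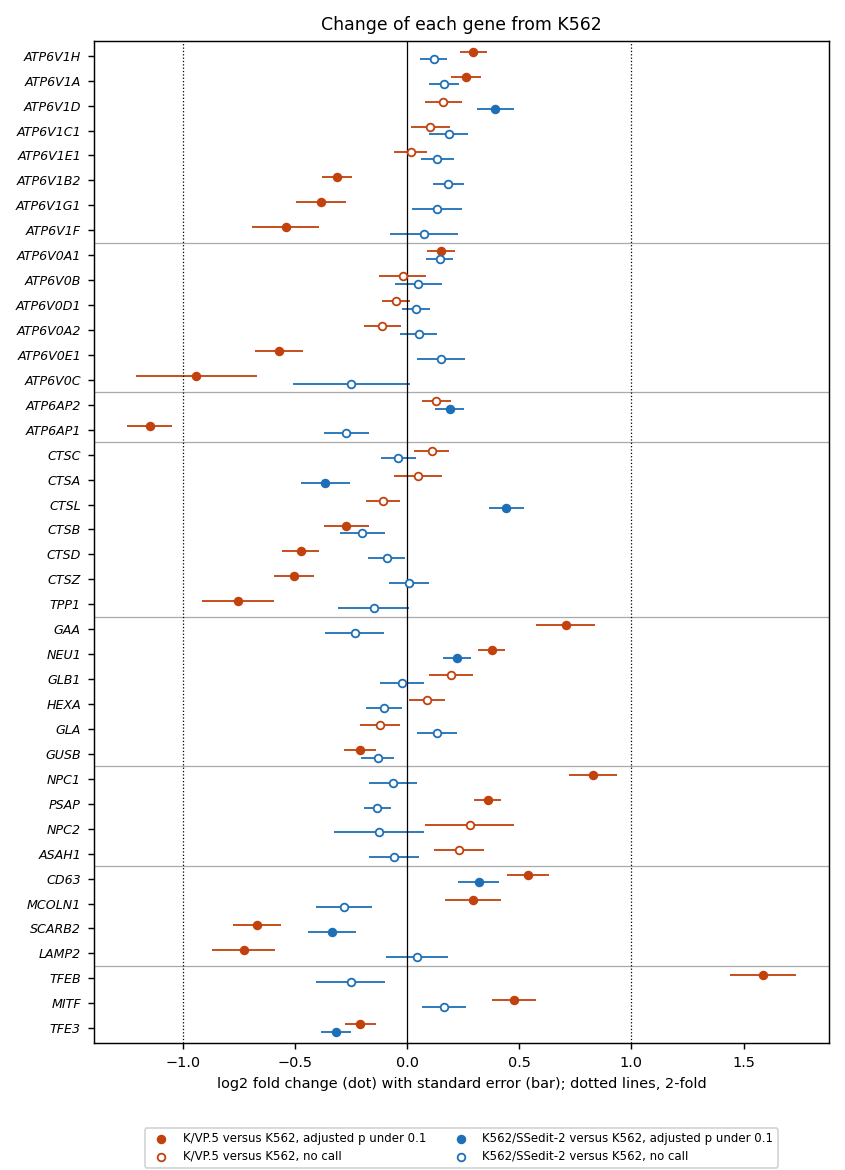
Log2 fold change from K562 (dots) with its standard error (bars) of the 40 tested members, grouped by role, in K/VP.5 (orange) and K562/SSedit-2 (blue), with filled dots for an adjusted p under 0.1 and dotted lines at 2-fold. The K562/SSedit-2 values all lie between -0.36 and 0.44, while those of K/VP.5 run from -1.15 for ATP6AP1 to 1.59 for TFEB.

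CTSL, a cysteine protease gene, had the largest rise in the edited line. It was at 107.6, 145.8, 132.7 and 123.8 CPM in K562, at 116.9, 119.8, 117.9 and 118.6 CPM in K/VP.5, and at 181, 168.2, 166.99 and 176.6 CPM in K562/SSedit-2. The 4 edited replicates were above every replicate of both other lines, with a log2 fold change from K562 of 0.44 ± 0.0773 (adjusted p = 0.00179, edgeR). ATP6V1D, a subunit of the rotor of the pump, was at 29.2, 27.4, 26.5 and 28.2 CPM in K562 and at 36.05, 37.6, 32.6 and 40.1 CPM in K562/SSedit-2 (0.39 ± 0.0825, adjusted p = 0.0071). These groups did not overlap either. Log2 fold changes of all 8 V1 members were positive, from 0.08 to 0.39, and 8883 of the 18626 tested genes were positive. The 8 share their libraries, so their signs are not independent. Only ATP6V1D was called, where 4.86% of all tested genes were called higher. Of the 8, 3 had an unadjusted p under 0.05, and DESeq2 and limma voom each called 2. Without K562 replicate 1 edgeR called 5 of the 8, adding ATP6V1B2 (0.18), ATP6V1C1 (0.26), ATP6V1E1 (0.21) and ATP6V1G1 (0.26). The share of all tested genes called in that fit is not given here. GLA was called higher as well in that fit (0.22, adjusted p = 0.0749).

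CD63 was higher in the edited line too, at 321.4, 279.3, 281.3 and 296.2 CPM (0.32 ± 0.0922, adjusted p = 0.0447, edgeR), above every K562 replicate, and its call was lost without K562/SSedit-2 replicate 1 or 4. NEU1 (0.22 ± 0.0607) and ATP6AP2 (0.19 ± 0.0644) were higher without overlap. ATP6AP2 lost its call in 6 of the 8 fits that left out 1 replicate and in a fit of the compared lines alone, and both genes lost it without a filter on low counts. CTSA was at 53.2, 39.1, 35.1 and 38.5 CPM in K562 and at 35.2, 33.1, 30.02 and 30.5 CPM in K562/SSedit-2, with overlap at 1 replicate. Its log2 fold change was -0.36 ± 0.109 (adjusted p = 0.0509), and -0.22 without K562 replicate 1 (adjusted p = 0.0637). The call was lost in a fit of the compared lines alone and without K562/SSedit-2 replicate 3 or 4. SCARB2 was at 40.3, 34.8, 30.7 and 33.95 CPM in K562/SSedit-2, also with overlap, and its call (-0.34 ± 0.106, adjusted p = 0.0651) was lost without K562 replicate 1 (-0.21, adjusted p = 0.101), without K562/SSedit-2 replicate 2, 3 or 4 and in a fit of the compared lines alone. Of the 6 V0 members none was called by edgeR or limma voom, 1 had an unadjusted p under 0.05 and DESeq2 called 1. By edgeR 4.86% of all tested genes were higher and 7.79% lower. Without K562 replicate 1 edgeR called ATP6V0A1 (0.18, adjusted p = 0.0562) and ATP6V0E1 (0.28, adjusted p = 0.0324). Of the 4 tested genes of lipid handling none was called by edgeR, DESeq2 or limma voom, and 1 had an unadjusted p under 0.05. PSAP was called lower by edgeR without K562 replicate 1 (-0.17, adjusted p = 0.0526).

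The clones were also compared with each other. Of 40 members 14 were higher in the edited clone than in the selected one and 13 were lower, against 26.2% and 27.8% of all tested genes. Replicates did not overlap for 23 of the 40, against 47.4% of all tested genes. TFEB alone was past 2-fold, at a log2 fold change of -1.84 ± 0.151 (adjusted p = 3.86e-08, edgeR), where 15.8% of all tested genes were past it. ATP6AP1 (0.88 ± 0.1005), LAMP2 (0.77 ± 0.141) and ATP6V0E1 (0.72 ± 0.107) had the largest rises, and GAA (-0.94 ± 0.131) and NPC1 (-0.89 ± 0.108) followed TFEB among the falls. In K562/SSedit-2 LAMP2 was at 77.2, 64.7, 56.01 and 72.4 CPM, ATP6V0E1 at 60.6, 53.7, 56.6 and 57.7 CPM, and NPC1 at 35.2, 35.95, 31.9 and 33.7 CPM. None of these 6 genes overlapped between the clones. The 13 falls numbered 7 when K/VP.5 replicate 1 was left out, which lost ATP6V1H, GLB1, HEXA, NEU1, ASAH1 and CD63.

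The 3 comparisons share samples, so the calls are listed side by side. Lower in K/VP.5 than in both K562 and K562/SSedit-2, with no call between the last pair, were 10 members (25%, against 18% of all tested genes), and 7 were higher in K/VP.5 in the same way (17.5%, against 18.1%). CD63 and NEU1 were higher than in K562 in both clones, with K/VP.5 the higher of the clones (5%, against 0.913% of all tested genes). The call between the clones was lost in 5 of 8 fits leaving out 1 replicate for CD63 and in 6 of 8 for NEU1. SCARB2 and TFE3 were lower than in K562 in both clones. SCARB2 was lowest in K/VP.5 (2.5%, against 1.45% of all tested genes) and TFE3 was not called between the clones (2.5%, against 1.54%). CTSL and ATP6V1D were high in K562/SSedit-2 against both other lines (5%, against 1.27% of all tested genes). Another 7 members were called in none of the 3 comparisons (17.5%, against 35.4% of all tested genes).

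Other lysosomal enzymes and their sorting genes were taken as a list of 40, of which 39 were tested, and in K/VP.5 9 were higher and 13 were lower, against 26.2% and 26.1% of all tested genes. In K562/SSedit-2 1 was higher and 11 were lower (28.2%, against 7.79% of all tested genes and 10.9% of protein-coding genes of at least 10 CPM), with a median log2 fold change of -0.13 against -0.01 over all tested genes. LGMN, an asparaginyl protease, was at 3.31 to 3.88 CPM in K562, at 7.08 to 9.22 CPM in K/VP.5 and at 1.79 to 2.10 CPM in K562/SSedit-2. The 3 lines did not overlap, with log2 fold changes from K562 of 1.17 ± 0.117 and -0.85 ± 0.127. CTSV, a close relative of CTSL, was at 0.0538 to 0.0972 CPM in K562, which was 2 to 4 counts per library, and at 0.746 to 1.47 CPM in K/VP.5, which was 22 to 59 counts. Its replicates did not overlap between these lines. CTSS, a cysteine protease gene, was the 1 gene of the list past 2-fold downward, at 7 to 35 counts in K562 and 1 to 13 in K/VP.5, with overlap (log2 fold change -1.67 ± 0.657).

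Levels of different members were compared per kilobase of annotated exon, as means in K562. PSAP was highest, at 334 CPM per kb, followed by ATP6V1F at 161 and CD63 at 97.5, and the replicates of these 3 genes did not overlap on this scale. TFEB was at 0.537 and LIPA at 0.02. By the length of the canonical transcript, an alternative chosen after seeing the data, PSAP was still highest at 378, but CTSC at 247 and CD63 at 231 came before ATP6V1F at 181, so the order below PSAP depends on the length used. Exon overlap limits these levels, and the fold changes, for some members. For CTSZ, 31.7% of the exon bases are shared with NELFCD on the opposite strand, which averaged 184 CPM in K562 and 147 CPM in K/VP.5, where CTSZ was lower too, for CTSD 23.4% are shared with PRADX, and for ATP6V1F 20.6% with KCP. The strand setting of the counting is not given in the sources used here.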

How the data were processed

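Gene counts from RNA-seq of 12 samples were analysed, with 4 replicates for each of the 3 lines. Per the labels and the paper's methods, the authors mapped reads to GRCh38 with HISAT2 and deposited 1 raw count per gene and sample from featureCounts, without normalization. The annotation release, the strand setting and how multi-mapped reads were counted are not given in the sources used here. Symbols, positions and exon overlaps came from GENCODE 44, which held 60401 of the 60671 gene IDs, and promoter windows from RefSeq (GRCh38.p14).

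Genes were kept by edgeR's filterByExpr (minimum count 10), which left 18626. TMM factors were computed, the 12 samples were fitted together by line in edgeR 4.0.16 (R 4.3.3), and lines were compared with edgeR's quasi-likelihood test, with p-values adjusted by Benjamini and Hochberg's method across the 18626 genes. A gene was called at an adjusted p under 0.1, and past 2-fold where its fold change also exceeded 2. The standard error of a log2 fold change was taken as its size over the root of the F statistic. CPM values use TMM-scaled totals of the tested genes. The precision of a level is set by the depth of 28981722 to 43648830 counts per library. In a test on simulated counts for K/VP.5 versus K562 (18177 genes), 56.1% of changes of 0.5, 72.7% of changes of 1 and 91.2% of changes of 1.5 on the log2 scale were recovered, and 14 unchanged genes were called. For K562/SSedit-2 versus K562 (18196 genes) the shares were 42.4%, 77.3% and 86.8%, with 16 unchanged genes called. Each simulation changed 66, 66 and 68 genes at these sizes, drawn from tested genes of all levels. In the data 52.3% of tested genes were called in K/VP.5 versus K562. The shares therefore do not measure how many real changes of the members were recovered.

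Replicate numbers come from the sample labels. Deviations from the line means of same-numbered samples of K562/SSedit-2 and K562 correlated at 0.23 to 0.38 in all 4 pairs, so these numbers were taken to pair the samples, and the fit with the number as a block is given where it changes a call or a count by over 1.5 times.

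The members, the lists of other genes and the tests were chosen with earlier results of these data known. Values by replicate or as ranges, with fold changes, are given for members past 2-fold in any comparison and for the 3 largest called rises and falls of each comparison, and, from the other lists, for up to 4 genes each past 2-fold against K562 with a mean of at least 1 CPM in either line. CTSS, ATP6V1G2 and LAMP3, below that level, were added after their values were seen. Alternatives were RLE and upper-quartile scaling, the DESeq2 1.42.0 Wald test, limma 3.58.1 voom, which the paper names, no filter, fits of the compared lines alone, a filter of 1 CPM or more in 4 or more samples, the replicate block, each replicate left out, an adjusted p under 0.05 and a fold change of 1.5. All 41 members were kept, and no sample was left out.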

Additional observations from a re-analysis of the deposited data

Results flagged for a closer look

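The CPM of 51 genes was checked within each line, 153 groups of 4 replicates in all, for a single replicate far from the other 3. Such a gap was found in 10 groups, where chance flags about 1 in 20, and 7 of the 10 concerned K562 replicate 1. That library was high for ATP6V0A1 (172.7 CPM, the others at most 159.5), ATP6V0A2 (109.5, the others at most 90.5), TPP1 (56.5, the others at most 32.8), GLB1 (109.1, the others at most 83.3), ASAH1 (50.1, the others at most 37.8) and MCOLN1 (17.8, the others at most 13.1). It was low for CD63, at 190.6 CPM with the others at 245.4 or above. Without it the log2 fold change in K/VP.5 versus K562 was -0.50 for TPP1 and 0.43 for CD63, and both were still called.

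The other 3 gaps were in HEXA, which was high in K/VP.5 replicate 3 (31.2 CPM, the others at most 29.8), in LGMN, which was low in K562/SSedit-2 replicate 4 (1.79 CPM, the others at 2.06 or above), and in LAPTM5, which was high in K562/SSedit-2 replicate 1 (4.60 CPM, the others at most 2.19).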

How the results depend on the processing

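No member was called in opposite directions under any alternative. In K/VP.5 versus K562, members higher numbered 11, and 18 with upper-quartile scaling. Leaving out 1 replicate gave 9 to 17, the highest without K562 replicate 1, and members lower 14 to 15 (14 with all samples). At a fold change of 1.5 the members past it numbered 8 instead of 2, and leaving out 1 replicate gave 2 to 3 past 2-fold. In K562/SSedit-2 versus K562, members higher numbered 5, with 8 under upper-quartile scaling, 3 without a filter and 4 to 12 when 1 replicate was left out, the highest without K562 replicate 1. Members lower numbered 3, with 6 under the replicate block, 1 in a fit of the compared lines alone, 1 at an adjusted p under 0.05 and 1 to 5 when 1 replicate was left out, the lowest without K562/SSedit-2 replicate 3 or 4 and the highest without K562/SSedit-2 replicate 1. The pairing by replicate number added calls for ATP6V1B2, ATP6AP1, CTSB and MCOLN1 in this comparison and lost none among the members. In K562/SSedit-2 versus K/VP.5, members higher ranged from 13 to 16 and lower from 7 to 14 when 1 replicate was left out (14 and 13 with all samples), the lowest without K/VP.5 replicate 1, and members past 2-fold numbered 1 to 2, with 2 without K562/SSedit-2 replicate 1, and 9 at a fold change of 1.5. Same-numbered samples correlated at -0.01 to 0.32 between K/VP.5 and K562 and at -0.18 to 0.21 between the clones, so there the samples share only a number, and the block added 4 and 3 calls and lost none. The cause of these moves was not tested.

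Some log2 fold changes near 0 changed sign, in each case without a call. For CTSA in K/VP.5 versus K562 (0.05), leaving out 1 replicate gave -0.044 to 0.17. In K562/SSedit-2 versus K562 it gave -0.50 to 0.017 for ATP6V0C, -0.027 to 0.22 for LAMP2, -0.13 to 0.084 for NPC1, -0.25 to 0.12 for TPP1, -0.063 to 0.76 for CTSV, -0.50 to 0.31 for LAPTM5, -0.058 to 0.44 for RRAGD and -0.019 to 0.14 for VMA21, and without a filter VMA21 was at -0.0016. For genes with few reads, such as CTSV at 2 to 4 counts per K562 library and LIPA, depth limits what can be seen.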

Other observations

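Other membrane proteins of the lysosome were taken as a list of 31, of which 28 were tested, and relative to K562 7 were higher and 11 were lower in K/VP.5, against 26.2% and 26.1% of all tested genes. LAPTM5, a transmembrane protein of lysosomes in blood cells, was at 5.28, 2.67, 2.05 and 1.85 CPM in K562 and at 0.500, 0.133, 0.319 and 0.237 CPM in K/VP.5. The lines did not overlap, with a log2 fold change of -3.27 ± 0.447 (adjusted p = 1.45e-05, edgeR), while K562/SSedit-2 at 1.91 to 4.60 CPM overlapped K562. LAMP3, a lysosomal membrane protein known from dendritic cells, was past 2-fold upward in K/VP.5 with overlap (1.34 ± 0.392), at 3 to 20 counts in K562 and 14 to 38 in K/VP.5. In K562/SSedit-2 1 of the 28 was higher and 1 was lower (3.57% each, against 4.86% and 7.79% of all tested genes).

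Autophagy genes were taken as a list of 46, of which 45 were tested, and 15 were higher and 13 were lower in K/VP.5 (33.3% and 28.9%, against 26.2% and 26.1% of all tested genes). In K562/SSedit-2 5 were higher and 1 was lower (11.1% and 2.22%, against 4.86% and 7.79%). OPTN, an autophagy receptor, was at 3.93, 3.87, 3.26 and 2.94 CPM in K562, at 7.12, 6.86, 5.82 and 5.998 CPM in K/VP.5 and at 11.9, 9.72, 9.57 and 10.4 CPM in K562/SSedit-2. The 3 lines did not overlap, and the log2 fold changes from K562 were 0.88 ± 0.127 and 1.57 ± 0.126. VAMP8, a SNARE protein of the fusion between autophagosomes and lysosomes, was at 56.2 to 60.6 CPM in K562, at 24.5 to 27.7 CPM in K/VP.5 and at 64.2 to 77.3 CPM in K562/SSedit-2. It was thus lower in one clone (-1.13 ± 0.0735) and higher in the other (0.29 ± 0.0717), again without overlap.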
